A study of Mus musculus with 48 samples.

Results

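The genes described here make, store and break down fat in liver: 36 genes of fatty acid synthesis, triglyceride assembly, lipid droplets, lipases and lipoprotein export, chosen by name from a liver RNA-seq count table. All 36 were found among the 22354 rows of the table by gene symbol, and all 36 passed the filter on low counts, which left 13646 genes. Liver turns surplus carbohydrate into fatty acids through cytosolic acetyl-CoA and malonyl-CoA, joins them to glycerol phosphate in stepwise acylations, and either stores the triglyceride in coated droplets or exports it on apolipoprotein B particles. The transcription factors SREBP-1c, ChREBP and LXR raise this programme after feeding, and in rodents kept on a light cycle several of its genes are known to vary over the day with feeding and with the circadian clock.

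The study compared livers of Bmal1 knockout mice (KO), which carried floxed Bmal1 alleles (fx/fx) and a Cre recombinase driven by the aP2 promoter, with livers of littermate controls (WT), all on C57BL/6 and aged 4 to 6 months. The aP2 (Fabp4) promoter is mainly active in fat cells, so the Cre was not aimed at hepatocytes, and the labels do not give the Bmal1 or Cre genotype of the littermates beyond wild type. BMAL1, encoded by Arntl, is a core activator of the circadian clock. Mice lived under 12 h of light and 12 h of dark, were then held in constant darkness for 36 h, and were killed in darkness every 4 h over 20 h, labelled 0, 4, 8, 12, 16 and 20 h. There were 23 KO and 25 WT livers, 4 in each group except 3 KO and 5 WT livers at 16 h, where the design text states 4 mice of each genotype at each time. Whether the label of a 16 h liver is wrong cannot be told from the sources used here, and every 16 h value rests on the labels.

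Outside albumin, which the table marks and which was left out, the 48 libraries held 12841969 to 13009797 counts each. Arntl did not differ past the test between the genotypes: scaled for library size to CPM, it ranged from 1.58 to 37.0, median 12.6, in KO livers and from 0.819 to 43.8, median 15.4, in WT livers, with a mean log2 difference of 0.30 ± 0.16 (SE, edgeR quasi-likelihood adjusted p = 0.347). The labels name the tissue as liver and the cell type as adipocyte; 7 of 7 hepatocyte markers were present in every library, whereas 7 of 9 adipocyte markers, Adipoq (at most 12 counts), Lep (at most 2) and Plin1 (at most 2) among them, had a median of 0 counts. The other adipocyte markers, Fabp4 and Car3, were present in every library, and the 9 markers summed to 64.6 to 3244 CPM in KO livers and 92.7 to 1433 CPM in WT livers. Most of that sum was Car3 (median 754 CPM over all libraries, against 8.29 CPM for Fabp4). The design text says male mice, but Xist had 3029 to 13969 counts in every library and no Y-linked gene examined exceeded 1 count. Adrenal cortex genes stood out in the third WT library of 0 h (133 CPM summed, against at most 5.16 in any other WT library) and exocrine pancreas genes in the second KO library of 0 h (252 CPM, against at most 3.43 in any other KO library). Libraries also differed in how expression depended on the GC content of the transcript, a trend given below as the library GC slope, the log2 change of a gene relative to its mean over libraries per 10 percentage points of GC. It ranged from -0.85 to 0.59 and averaged -0.11 ± 0.40 in KO libraries and 0.10 ± 0.39 in WT libraries (SD, n = 23 and 25).

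No member passed the test between KO and WT liver in the mean over the 6 times, at any single time, or in how the genotype difference depended on time. Of 36 members, 0 passed the edgeR quasi-likelihood test at an adjusted p of 0.05 for the mean difference, where 1.4% of all 13646 genes did (191 genes, 85 higher and 106 lower in KO), and 6 members had an unadjusted p under 0.05, against 17.1% of all genes. The median member difference was -0.03 on the log2 scale and that of all genes -0.0047, with 15 members higher and 21 lower in KO. The smallest adjusted p among members was 0.120, for Plin4. In whole liver, fewer cells of a type and less RNA per cell cannot be told apart.

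**Figure D1:**
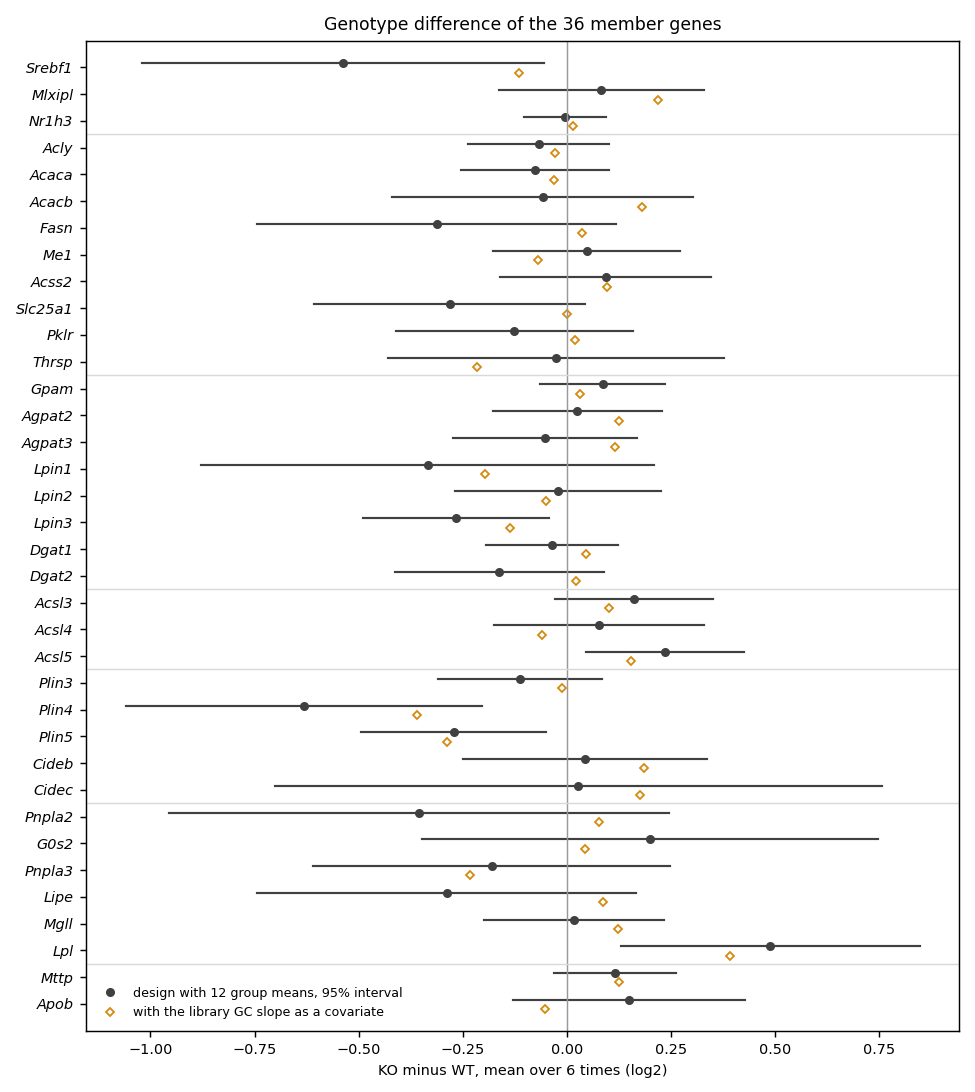
Log2 difference between KO and WT liver, averaged over 6 times, for the 36 members in the order of their roles. Filled points and lines are the estimate and its 95% interval from the fit with 12 group means; open diamonds are the estimate with the library GC slope as a covariate, which moves Fasn from -0.31 to 0.04 and Lipe from -0.29 to 0.09 and leaves Plin5 at -0.29.

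Plin4 and Lpl had the lowest p-values of the members in the mean comparison. Plin4, a perilipin that coats lipid droplets, ranged from 11.5 to 150 CPM with a median of 72.1 in 23 KO livers, against 31.9 to 265 CPM with a median of 93.1 in 25 WT livers. Its mean log2 difference was -0.63 ± 0.21 (SE) with a negative difference at 5 of 6 times; the ranges over all times overlapped. With the library GC slope as a covariate, an alternative added after the data were seen, it was -0.36 ± 0.16 (adjusted p = 0.272), and 0 of 36 members passed, against 1.55% of all genes. Among the alternatives run, Plin4 passed the mean test without the first KO library of 4 h (-0.73) and without the first KO library of 16 h (-0.77).

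Lpl, the lipoprotein lipase that releases fatty acids from circulating triglyceride and is normally low in adult hepatocytes, ranged from 7.10 to 29.9 CPM (median 21.0) in KO livers and from 4.66 to 33.7 CPM (median 14.3) in WT livers. The mean log2 difference was 0.49 ± 0.18 (adjusted p = 0.156), higher in KO at 5 of 6 times. Its 12 h and 16 h differences were the 2 with an unadjusted p under 0.05: at 12 h the KO libraries had 16.4, 25.7, 29.0 and 22.2 CPM and the WT libraries 12.0, 16.0, 4.75 and 6.24 CPM, and those groups did not overlap. At 16 h the KO libraries had 28.2, 12.7 and 26.6 CPM and the WT libraries 4.66, 10.5, 14.8, 8.24 and 6.65 CPM, with 1 KO library inside the WT range. Neither difference passed the test over all genes. It was log2 1.26 ± 0.44 at 12 h (edgeR adjusted p = 0.908) and 1.33 ± 0.44 at 16 h (edgeR adjusted p = 0.505). Of 13646 genes, 0 passed at 12 h (0%) and 3 at 16 h (0.022%). How many of all genes had groups without overlap at 12 h is not given here. Macrophages also express Lpl; the summed level of 7 macrophage and Kupffer cell markers ranged from 85.0 to 455 CPM (median 242) in KO livers and from 71.8 to 789 CPM (median 182) in WT livers, 0 of 7 passed the mean test, and their part in the Lpl values was not tested.

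Acsl5, an acyl-CoA synthetase that activates long-chain fatty acids, ranged from 247 to 724 CPM (median 471) in KO livers and from 249 to 595 CPM (median 397) in WT livers. Its log2 difference was 0.23 ± 0.09 (adjusted p = 0.199), higher in KO at 5 of 6 times. The difference was widest at 0 h, where the KO libraries had 506, 643, 502 and 724 CPM and the WT libraries 471, 400, 309 and 400 CPM. Every KO library lay above every WT library at that time, but the log2 difference of 0.59 ± 0.23 had an edgeR adjusted p of 0.674. At 0 h 2 of 13646 genes were called (0.0147%), and how many of all genes had groups without overlap is not given here. Acsl3 (0.16 ± 0.09) and Acsl4 (0.08 ± 0.13), the other acyl-CoA synthetases, had adjusted p-values of 0.374 and 0.749.

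**Figure D2:**
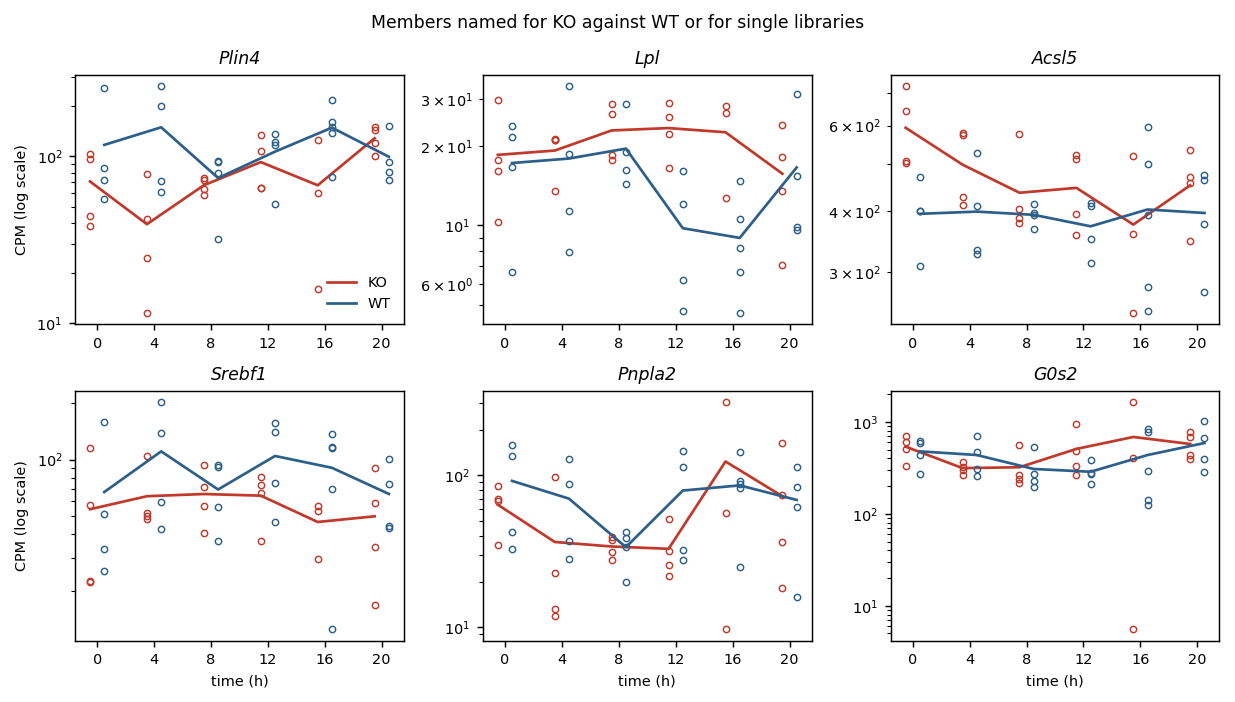
CPM on a log scale by time in every KO and WT library (open circles, KO left of WT at each time) with group means as lines, n = 3 to 5 livers a group. Plin4, Lpl and Acsl5 had the lowest p-values in the mean comparison; Srebf1, Pnpla2 and G0s2 were added after their values were seen, and G0s2 spans 5.57 to 1642 CPM within the KO group of 16 h.

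Among the transcription factors, Srebf1, which encodes SREBP-1, was lower in KO on average at all 6 times, with 16.9 to 115 CPM (median 56.5) in KO livers and 12.6 to 202 CPM (median 74.6) in WT livers. The log2 difference of -0.54 ± 0.24 had an adjusted p of 0.245, and it was -0.11 ± 0.19 with the library GC slope as a covariate. Mlxipl, which encodes ChREBP, differed by 0.08 ± 0.12, and Nr1h3, which encodes LXR alpha, by -0.0051 ± 0.0490. Nr1h3 varied little between livers of a group (SD 0.14 on the log2 scale), at the 0.718 percentile of all genes tested.

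The 9 genes of fatty acid synthesis and its carbon supply included 7 that were lower and 2 that were higher in KO on average, and none passed the test. Slc25a1, the citrate carrier that delivers mitochondrial citrate to the cytosol, had the lowest p of them (log2 -0.28 ± 0.16, edgeR adjusted p = 0.366). With the library GC slope as a covariate the Slc25a1 difference was -0.0008 ± 0.0814 (edgeR adjusted p = 0.997). Fasn, fatty acid synthase, was at -0.31 ± 0.21, and the acetyl-CoA carboxylases Acaca and Acacb were at -0.08 ± 0.09 and -0.06 ± 0.18. Acly, which splits citrate, was at -0.07 ± 0.08, Acss2, which activates acetate, at 0.09 ± 0.12, and Me1, a source of NADPH, at 0.05 ± 0.11. Pklr, liver pyruvate kinase, was at -0.13 ± 0.14 and Thrsp (Spot 14), a small protein that promotes lipogenesis, at -0.03 ± 0.20.

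Of the 8 genes of triglyceride assembly, 2 were higher and 6 lower in KO on average without passing the test. Gpam, which acylates glycerol phosphate, was at 0.09 ± 0.07, and the next acyltransferases Agpat2 and Agpat3 at 0.02 ± 0.10 and -0.05 ± 0.11. The lipins, which dephosphorylate phosphatidic acid, were at -0.33 ± 0.27 (Lpin1), -0.02 ± 0.12 (Lpin2) and -0.27 ± 0.11 (Lpin3, adjusted p = 0.211). The final acyltransferases Dgat1 and Dgat2 were at -0.04 ± 0.08 and -0.16 ± 0.12. The 95% interval ran from -0.07 to 0.24 on the log2 scale for Gpam and from -0.88 to 0.21 for Lpin1.

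Besides Plin4, the droplet proteins comprised Plin5, which tethers droplets to mitochondria (-0.27 ± 0.11, adjusted p = 0.201), Plin3 (-0.11 ± 0.10), and the droplet fusion proteins Cideb (0.04 ± 0.14) and Cidec (0.03 ± 0.36). Among lipases, Pnpla2 (adipose triglyceride lipase) was at -0.35 ± 0.30 and its inhibitor G0s2 at 0.20 ± 0.27. Lipe (hormone-sensitive lipase) was at -0.29 ± 0.22, Mgll (monoacylglycerol lipase) at 0.02 ± 0.11 and Pnpla3 at -0.18 ± 0.21. The lipoprotein assembly genes Mttp, which lipidates nascent particles, and Apob, their structural protein, were at 0.11 ± 0.07 and 0.15 ± 0.14, with 0 of both called.

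At 4 h most members were lower in KO without passing the test. In the fit without the library GC slope, 27 of the 36 members were lower and 9 higher. Their median log2 difference was -0.31, where the median of all genes was -0.0051. The test called 0 members, against 0.0366% of all genes. An unadjusted p under 0.05 was reached by 5 members, all lower in KO, against 23.3% of all genes in either direction. The library GC slope at 4 h averaged -0.38 ± 0.58 in KO and 0.21 ± 0.25 in WT (SD, n = 4 each). With the slope as a covariate some 4 h differences changed sign, Fasn from -0.79 to 0.04 among them. Others stayed negative, such as Plin5 at -0.57 without the covariate and -0.62 with it. What part the slope has in the shift of the members was not tested. Plin4 had 78.4, 42.3, 11.5 and 24.6 CPM in the KO libraries and 265, 200.5, 70.9 and 61.6 CPM in the WT libraries, a log2 difference of -1.93 ± 0.53 (adjusted p = 0.0987). The first KO library overlapped the WT range and the other 3 lay below it. Between livers of the same number KO was lower in 4 of 4 pairs, but pairing by number rests on the data alone. Same-numbered livers correlated above 0.1 in 4 of 4 pairs at 4 h, in 0 of 3 at 16 h and in 13 of 23 over all times. With the replicate number as a block, a block that has the same limit, the difference was -1.98 ± 0.39 (edgeR adjusted p = 0.0796).

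Pnpla2 had 97.9, 22.9, 11.9 and 13.1 CPM in the KO libraries of 4 h and 88.3, 128, 28.0 and 36.9 CPM in the WT libraries. Lipe had 24.5, 5.31, 3.78 and 4.72 CPM in those KO libraries and 17.0, 24.1, 8.60 and 10.6 CPM in those WT libraries. For both lipases the first KO library was within the WT range or above it and the other 3 were below every WT library. Without that library, Plin4 (log2 -2.51 ± 0.58, adjusted p = 0.0120), Pnpla2 (-2.13 ± 0.79, adjusted p = 0.0450) and Lipe (-1.70 ± 0.57, adjusted p = 0.0311) passed the test, and so did 24.6% of all genes (3354 of 13631), against 5 genes with it and 2 with the replicate number as a block. With the first WT library of 4 h left out as well, an alternative added after the data were seen, Plin4 passed (-2.08 ± 0.58, adjusted p = 0.0386). In that fit Pnpla2 (adjusted p = 0.0948) and Lipe (adjusted p = 0.0694) did not, and 6.66% of all genes did. With every 4 h library kept, Plin4 also passed with DESeq2, without both 16 h groups and without the third KO library of 16 h. The mean difference over the 6 times was -0.56 for Pnpla2 and -0.47 for Lipe without the first KO library of 4 h, in place of -0.35 and -0.29. The library GC slopes of the KO livers at 4 h were 0.44, -0.39, -0.85 and -0.73, and those of the WT livers 0.50, 0.34, 0.01 and -0.0058. With the slope as a covariate over all libraries, the 4 h differences were -1.21 ± 0.41 for Plin4 (adjusted p = 0.316), 0.23 ± 0.37 for Pnpla2 and 0.19 ± 0.21 for Lipe.

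Collection time separated livers in 12 of 36 members in at least 1 genotype. In a 24 h cosine fit, 10 of 36 members (27.8%) were rhythmic in KO liver, against 17% of all genes, and 9 (25%) in WT liver, against 16.3% of all genes. Rhythmic in both were 7 members (Acacb, Thrsp, Agpat2, Lpin1, Lpin2, Plin5 and Mttp), against 9.59% of all genes. The members were chosen with earlier results of these data known, so these shares are no test of the set against all genes. Gpam, Agpat3 and Acsl4 passed in KO liver alone and Lpin3 and Dgat2 in WT liver alone, but 0 of 36 members passed the test of the rhythm difference between the genotypes (0.00733% of all genes did), and 0 of 36 passed the genotype by time interaction (0.00733% of all genes). An unadjusted p under 0.05 was reached by 1 member (Lpl) for the rhythm difference, against 2.66% of all genes, and by 2 members (Plin4 and Mgll) for the interaction, against 3.28%. The median amplitude (mean to peak) was 0.32 in KO and 0.29 in WT on the log2 scale for the members, and 0.25 in KO and 0.22 in WT for all genes.

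**Figure D3:**
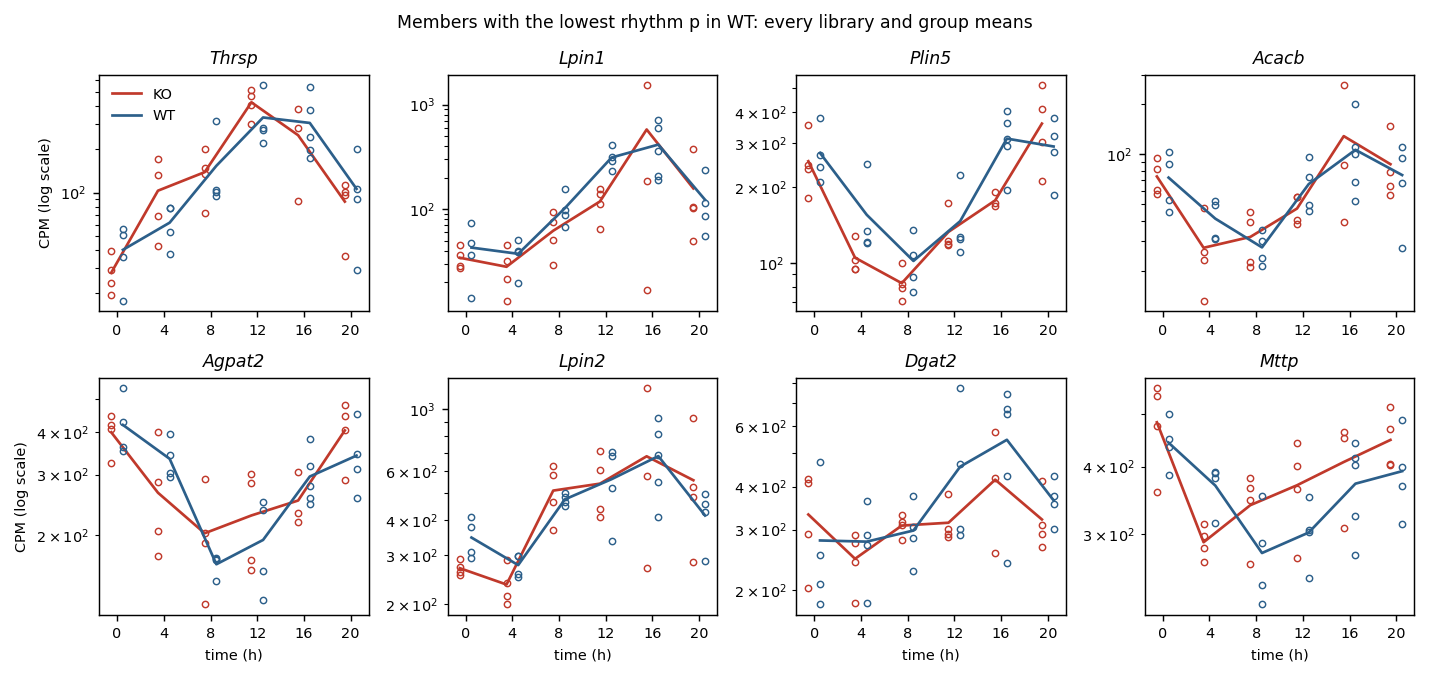
CPM on a log scale by time for the 8 members with the lowest rhythm p in WT liver; open circles are libraries (KO left of WT at each time, n = 3 to 5 livers a group) and lines join group means. Mean Thrsp is highest at 12 h in KO and WT and Plin5 lowest at 8 h. Mean Lpin1 and Lpin2 are highest at 16 h, in KO through 1 library, without which their KO maximum is at 20 h.

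Thrsp was low at 0 h and high at 12 h in KO and WT liver. It had 28.9, 23.6, 39.6 and 19.4 CPM in KO and 50.9, 55.8, 35.9 and 17.9 CPM in WT at 0 h. At 12 h it had 518, 408, 298 and 466 CPM in KO and 554, 220.3, 272 and 280.4 CPM in WT. No library of 0 h reached the lowest of 12 h in either genotype. The amplitude was 1.65 ± 0.22 in KO and 1.58 ± 0.21 in WT on the log2 scale (SE), with peaks at 12.4 ± 0.5 h in KO and 13.2 ± 0.5 h in WT, and the adjusted rhythm p was 4.57e-06 in KO and 2.40e-06 in WT.

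Lpin1, a phosphatidate phosphatase that also acts as a transcriptional coactivator, had 31.9, 45.4, 13.3 and 21.6 CPM in KO and 50.9, 39.2, 19.7 and 39.5 CPM in WT at 4 h. At 16 h it had 187, 1528 and 16.7 CPM in KO and 717, 209, 359.7, 595 and 188 CPM in WT. All 5 WT livers of 16 h were above all WT livers of 4 h, whereas 1 KO liver of 16 h fell within the KO range of 4 h. The amplitude was 1.40 ± 0.30 with a peak at 15.5 ± 0.8 h in KO and 1.86 ± 0.28 with a peak at 14.2 ± 0.6 h in WT (adjusted rhythm p 5.09e-06 in KO and 8.97e-06 in WT). Without the second KO library of 16 h the KO amplitude was 1.06 ± 0.27. The KO mean of 16 h was then 102 CPM in place of 577 CPM, and the highest KO mean was that of 20 h. At 12 h Lpin1 had 157, 111, 65.1 and 139.8 CPM in KO and 411, 313, 233 and 289 CPM in WT. Those groups did not overlap, with a log2 difference of -1.40 ± 0.66 and an edgeR adjusted p of 0.908. At 12 h 0 of 13646 genes were called, and how many of all genes had groups without overlap is not given here.

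Plin5 was lowest at 8 h, with 99.5, 79.1, 70.6 and 82.4 CPM in KO and 76.5, 135, 87.5 and 107 CPM in WT. It was highest at 20 h in KO (512, 211, 412 and 304 CPM), where the WT livers had 278, 321, 381 and 187 CPM. The amplitude was 0.98 ± 0.12 in KO and 0.84 ± 0.11 in WT, with peaks at 20.1 ± 0.5 h in KO and 19.8 ± 0.5 h in WT. Its rhythm had the lowest adjusted p of all members in KO liver (1.11e-07; 4.76e-06 in WT). At 16 h the KO livers had 191, 173 and 168 CPM and the WT livers 312, 363, 195, 405 and 293 CPM. All WT livers were above all KO livers, with a log2 difference of -0.82 ± 0.28 and an edgeR adjusted p of 0.557. At 16 h 3 of 13646 genes were called, and how many of all genes had groups without overlap is not given here. The correlation of Plin5 with the library GC slope was -0.11.

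Acacb, the mitochondrial acetyl-CoA carboxylase whose product restrains fatty acid oxidation, had group means of 27.4 ± 14.5 CPM in KO and 41.1 ± 11.6 CPM in WT at 4 h (SD, n = 4 each) and of 129 ± 116 CPM in KO (n = 3) and 107 ± 58 CPM in WT (n = 5) at 16 h. Without the second KO library of 16 h that KO mean was 63.0 CPM, below the WT mean, and the log2 difference at 16 h was -0.76 in place of 0.27. Its amplitude was 0.97 ± 0.20 with a peak at 18.5 ± 0.8 h in KO and 0.75 ± 0.19 with a peak at 18.2 ± 1.0 h in WT. Agpat2 had 399 ± 53 CPM in KO and 419 ± 84 CPM in WT at 0 h, and 202 ± 68 CPM in KO and 164 ± 12 CPM in WT at 8 h (SD, n = 4 each). Its amplitude was 0.55 ± 0.10 in KO and 0.63 ± 0.10 in WT, with peaks at 21.7 ± 0.8 h in KO and 22.4 ± 0.6 h in WT.

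Lpin2 had 235 ± 39 CPM in KO and 276 ± 25 CPM in WT at 4 h (SD, n = 4 each) and 678 ± 468 CPM in KO (n = 3) and 679.5 ± 209 CPM in WT (n = 5) at 16 h. Without the second KO library of 16 h that KO mean was 423 CPM, below the KO mean of 20 h. Its peak was at 14.4 ± 0.8 h in KO and 14.2 ± 0.9 h in WT. Mttp had 483 ± 91 CPM in KO and 443 ± 48 CPM in WT at 0 h, and its lowest group mean was 289 ± 20 CPM at 4 h in KO and 276 ± 58 CPM at 8 h in WT. Its amplitude was small, 0.29 ± 0.08 in KO and 0.31 ± 0.07 in WT, with peaks at 19.6 ± 1.0 h in KO and 22.1 ± 0.9 h in WT.

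Dgat2, the acyltransferase that uses newly made fatty acids, had 422, 576.5 and 257 CPM in KO and 649, 241, 428, 743 and 671 CPM in WT at 16 h, and 289, 184, 273.5 and 242 CPM in KO and 363, 289.8, 271 and 184 CPM in WT at 4 h. Its amplitude was 0.23 ± 0.13 in KO and 0.49 ± 0.12 in WT. The edgeR quasi-likelihood adjusted p of its rhythm was 0.300 in KO and 0.00392 in WT, and that of the rhythm difference was 0.9999. With both 16 h groups left out the adjusted p in WT was 0.066. Lpin3 had an amplitude of 0.13 ± 0.11 in KO and 0.40 ± 0.10 in WT.

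**Figure D4:**
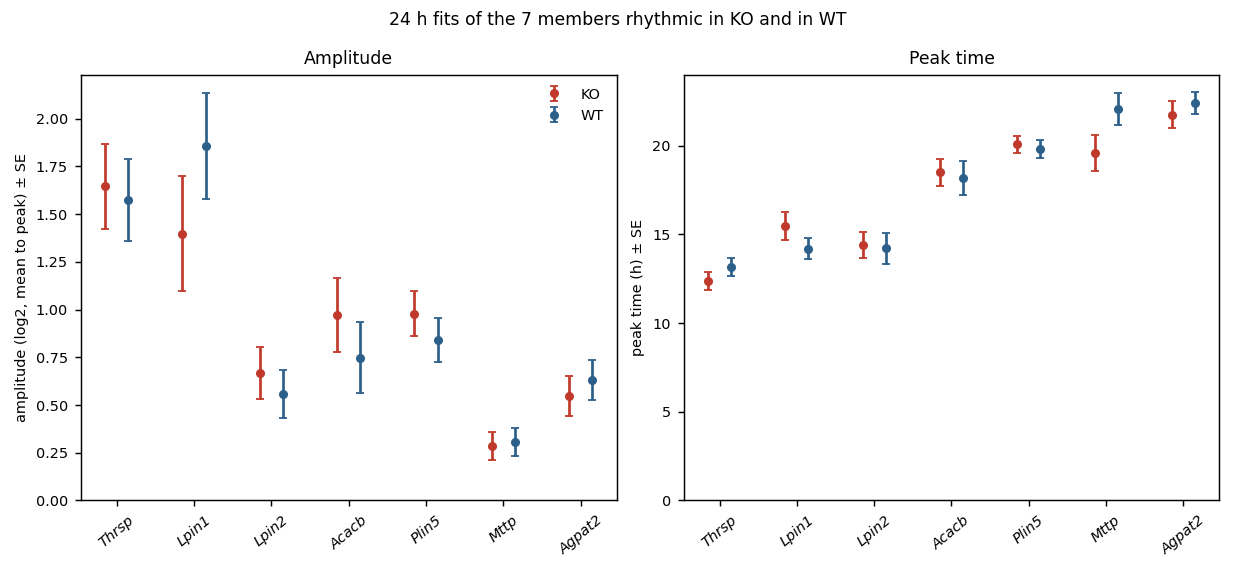
Amplitude on the log2 scale (left) and peak time in hours (right) of the 24 h fit, with SE, for the 7 members rhythmic in KO (n = 23 livers) and in WT (n = 25 livers), ordered by peak time in WT. Thrsp, Lpin1 and Lpin2 peak between 12.4 and 15.5 h and Acacb, Plin5, Mttp and Agpat2 between 18.2 and 22.4 h in both genotypes.

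The rhythm counts changed with the library GC slope as a covariate. They became 11 in KO liver, against 21.7% of all genes, and 17 in WT liver, against 29.7% of all genes, and 10 members then passed in both. Fasn (adjusted p = 0.0219), Slc25a1 (0.00615), Pklr (0.00878), Acss2 (0.0336), Gpam (0.0311), Acsl4 (0.00165), Pnpla3 (0.0336) and Lpl (0.0316) passed in WT liver in that fit and not without the covariate, and Srebf1 (0.0310) and Slc25a1 (0.0255) did so in KO liver, where Agpat3 no longer passed (0.0734). The rhythm difference was called for 0 of 36 members in that fit too. The slope itself differed between times. Its group means ran from -0.27 at 8 h to 0.24 at 16 h in WT, and from -0.38 at 4 h to 0.19 at 0 h in KO. The covariate thus shares part of the variation over time, and its part in the new calls was not tested.

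The stretches upstream of the rhythmic genes are shown for Lpin1, Lpin2, Plin5 and Acacb, the 4 of the 7 members rhythmic in KO and WT whose windows hold a match to one of the motifs searched; they were chosen after the search. The windows are the 250 bases before RefSeq transcript starts on GRCm38.p6, and 33 of 36 members had at least 1, in 47 windows; only a stretch outside exons is printed. Both strands were searched for the E-box CACGTG, its variant CACGTT, the D-box TTATGNAA, the nuclear receptor half-site AGGTCA and the letters TCACNCCAC of a sterol element; capitals mark the match, and none of these motifs contains another. In all 32851 windows CACGTG was found in 6.02%, CACGTT in 3.85%, TTATGNAA in 3.07%, AGGTCA in 14.02% and TCACNCCAC in 1.05%. The Lpin1 window is chr12:16610967-16611216 on the minus strand with AGGTCA 74 bases before the start. The Lpin2 window shown is chr17:71183282-71183531 on the plus strand with CACGTG 9 bases before the start. The other Lpin2 windows, chr17:71183728-71183977 and chr17:71204404-71204653, held none of the 5 motifs. The Plin5 stretch is chr17:56117597-56117798 on the minus strand with AGGTCA 170 bases before the start. The other Plin5 window, chr17:56117299-56117548, held none of the 5 motifs. The Acacb stretch is chr5:114165268-114165508 on the plus strand with CACGTT, read here as AACGTG, 176 bases before the start.
Lpin1: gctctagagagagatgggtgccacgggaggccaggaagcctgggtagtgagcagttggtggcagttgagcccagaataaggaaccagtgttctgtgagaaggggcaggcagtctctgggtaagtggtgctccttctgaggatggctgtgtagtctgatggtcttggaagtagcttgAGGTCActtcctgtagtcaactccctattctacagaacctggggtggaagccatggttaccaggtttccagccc
Lpin2: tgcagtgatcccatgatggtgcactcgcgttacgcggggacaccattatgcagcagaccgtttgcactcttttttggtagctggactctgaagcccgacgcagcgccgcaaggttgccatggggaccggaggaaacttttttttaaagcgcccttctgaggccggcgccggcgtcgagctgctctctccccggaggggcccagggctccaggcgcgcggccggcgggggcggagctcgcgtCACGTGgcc
Plin5: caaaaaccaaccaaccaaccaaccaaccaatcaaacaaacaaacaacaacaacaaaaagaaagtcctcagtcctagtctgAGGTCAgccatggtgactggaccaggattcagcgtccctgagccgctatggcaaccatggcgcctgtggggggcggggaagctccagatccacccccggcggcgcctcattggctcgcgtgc
Acacb: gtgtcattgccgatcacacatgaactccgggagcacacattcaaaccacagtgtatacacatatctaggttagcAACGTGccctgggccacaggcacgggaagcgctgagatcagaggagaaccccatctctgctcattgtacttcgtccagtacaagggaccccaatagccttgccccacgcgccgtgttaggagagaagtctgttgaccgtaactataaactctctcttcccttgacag
CACGTG was also found for Lipe, Mgll, Mlxipl and Slc25a1, CACGTT for Agpat3 and Mgll, AGGTCA for Acly, Gpam and Pklr, TCACNCCAC for Mlxipl, and TTATGNAA for no member. Of 47 member windows 5 held CACGTG and 5 AGGTCA, 10.6% each. The Thrsp window held none of the 5 motifs.

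Livers of the same group differed most in Cidec, G0s2, Pnpla2, Lpin1 and Srebf1. Their SDs within groups on the log2 scale were 1.31, 1.22, 1.13, 1.06 and 0.91, where the median gene had 0.41 and the median member 0.45, and 9 members were above the 90th percentile of all genes (0.73). The second KO library of 16 h held the highest value of all 48 libraries for 7 members and the lowest for 3. G0s2, which restrains Pnpla2, had 409, 5.57 and 1642 CPM in the KO livers of 16 h and 294.5, 841, 140.4, 126 and 777 CPM in the WT livers. Pnpla2 had 56.7, 304.5 and 9.72 CPM in those KO livers and 88.0, 24.9, 82.9, 142 and 92.6 CPM in those WT livers. In both groups of 16 h the library lowest in G0s2 was thus the highest in Pnpla2, and the library highest in G0s2 the lowest in Pnpla2. Other groups differed: the second WT liver of 4 h was highest of its group in both (G0s2 705 CPM, Pnpla2 128 CPM). The second KO liver of 0 h was lowest of its group in both (334 and 34.8 CPM). Both genes were chosen after their values were seen, and a link between them was not tested. At 16 h the libraries highest in Pnpla2 had the highest library GC slope of their group (0.21 in KO and 0.54 in WT). Those lowest in Pnpla2 had the lowest slope (-0.80 in KO and -0.61 in WT). Within groups the correlation with the slope was 0.91 for Pnpla2 and -0.32 for G0s2. What part the slope has in the 16 h pattern was not tested. The KO livers of 16 h held the lowest and the highest G0s2 value of all 48 libraries, which are 295-fold apart. Without the second KO library of 16 h the mean log2 difference of G0s2 was 0.30, that of Lpin1 -0.76 and that of Pnpla2 -0.68, in place of 0.20, -0.33 and -0.35.

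Within groups many members varied with the library GC slope, at about the share of all genes. The slope, taken as a deviation from its group mean, followed the first principal component of the within-group deviations of all tested genes (absolute r = 0.996), which held 36.4% of their variance. Over 48 libraries, 25 of 36 members correlated with the slope at an adjusted p under 0.05 (permutation within groups, adjusted over 36), 18 positively and 7 negatively. An absolute r above 0.5 was reached by 52.8% of members and 55% of all 13646 genes. Above 0.5 were 44.4% of members and 28.3% of all genes. Below -0.5 were 8.33% of members and 26.7% of all genes. The strongest were Lipe (r = 0.94, rho = 0.92, permutation p = 1e-05 for each, the smallest that 100000 permutations allow), Apob (r = -0.935, rho = -0.945, same p for each) and Pnpla2 (r = 0.91, rho = 0.90, same p for each). Without the 2 libraries farthest from the median slope the r of Lipe, Apob and Pnpla2 was 0.93, -0.93 and 0.90. In KO libraries alone they were 0.96, -0.95 and 0.91, and in WT libraries alone 0.93, -0.93 and 0.91. Lipe and Pnpla2 transcripts have 55.6% and 57.0% GC and the Apob transcript 43.5%. Plin5 (58.6% GC, r = -0.11), Mttp (45.9% GC, r = 0.08) and Acss2 (47.8% GC, r = -0.03) did not pass the test of correlation with the slope (adjusted permutation p = 0.583, 0.657 and 0.862).

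**Figure D5:**
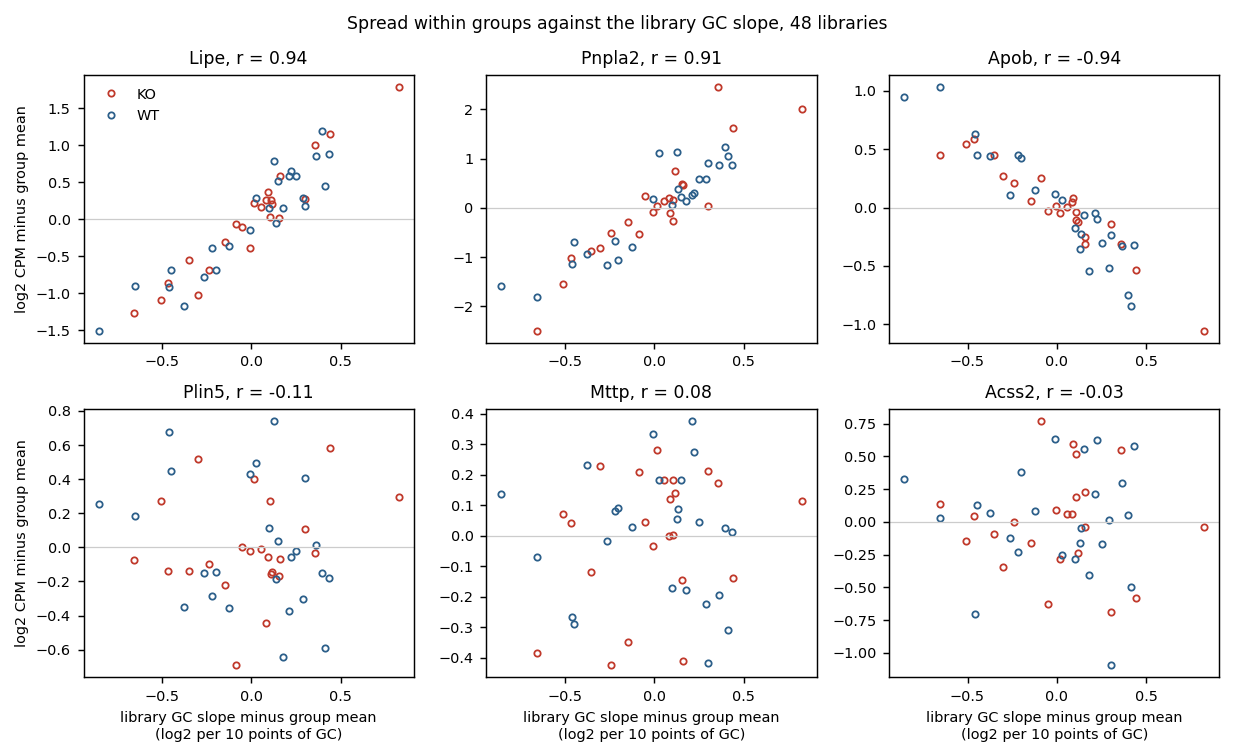
Log2 CPM of 6 members in each of 48 libraries minus the mean of its group, against the library GC slope minus its group mean (log2 per 10 percentage points of transcript GC); KO and WT libraries are coloured. Lipe and Pnpla2 rise with the slope (r = 0.94 and 0.91), Apob falls (r = -0.94), and Plin5, Mttp and Acss2 have r between -0.11 and 0.08.

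Of the 630 pairs of members, 189 correlated within groups at an adjusted permutation p under 0.05, 136 positively and 53 negatively, led by Slc25a1 and Lipe (r = 0.91, rho = 0.90, adjusted permutation p = 0.000233 and 0.000252). Slc25a1 and Lipe each correlated with the slope (r = 0.887 and 0.942). With each gene's linear trend on the slope removed, 57 pairs passed that threshold, 50 positive and 7 negative. The median absolute r was 0.287 over member pairs and 0.276 over all pairs of tested genes as measured. After removal it was 0.205 over member pairs and 0.163 over all pairs. An absolute r of at least 0.5 was reached by 21.4% of member pairs and 21.9% of all pairs as measured. After removal it was reached by 6.98% of member pairs and 3.46% of all pairs. No test set the members apart from other genes. After removal Acly and Pklr had r = 0.72 and rho = 0.68 (adjusted permutation p = 0.00315 and 0.0054). Their r was then 0.64 without the 2 libraries farthest from the median of Acly, 0.61 in KO libraries and 0.80 in WT libraries. Also after removal, Acss2 and Thrsp had r = 0.64 and rho = 0.63 (adjusted permutation p = 0.0036 and 0.0056). Srebf1 and Slc25a1 then had r = 0.59 and rho = 0.60 (adjusted permutation p = 0.00394 and 0.0056). Fasn and Thrsp had r = 0.64 and rho = 0.61 (adjusted permutation p = 0.0036 and 0.00735) after the trend was removed and r = -0.0069 before. Slc25a1 and Cideb were opposed (r = -0.72, rho = -0.68, adjusted permutation p = 0.00315 and 0.0054) after removal, against r = 0.34 before (adjusted permutation p = 0.096).

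Beyond the members, 58 other genes of the same pathways were listed, of which 56 were in the table and 53 were tested. In the mean comparison 5 of 53 rose in KO liver and 0 fell, where 0.623% of all genes rose and 0.777% fell. The list was chosen with earlier results of these data known, so its counts here are no test of the pathway against all genes. Cd36, a fatty acid translocase, ranged from 190 to 810 CPM (median 447) in KO livers and from 116 to 600.2 CPM (median 243) in WT livers, with a log2 difference of 0.74 ± 0.14 (adjusted p = 0.00326), higher at 6 of 6 times. It kept its call without any 1 of the 48 libraries and with the GC slope as a covariate (0.53 ± 0.11, adjusted p = 0.00435). Slc27a2, a fatty acid transporter and very long-chain acyl-CoA synthetase, rose by 0.31 ± 0.08 (adjusted p = 0.0298; 0.0259 with the GC slope), and Fitm1, a droplet-forming protein of the endoplasmic reticulum, by 0.72 ± 0.20 (adjusted p = 0.0488; 0.0174 with the GC slope). Vldlr, the very low density lipoprotein receptor, rose by 0.57 ± 0.14 (adjusted p = 0.0313) and Lipc, hepatic lipase, by 0.46 ± 0.12 (adjusted p = 0.0488). With the GC slope as a covariate the differences were 0.42 ± 0.14 for Vldlr and 0.29 ± 0.09 for Lipc, and neither passed (adjusted p = 0.107 and 0.0952). Leaving out single libraries kept the call of Slc27a2 in 41, Vldlr in 42, Fitm1 in 18 and Lipc in 13 of 48 fits. Rhythms passed the test in 11 of the 53 in KO liver, against 17% of all genes, and in 17 in WT liver, against 16.3%. With the GC slope as a covariate these were 16 in KO, against 21.7% of all genes, and 22 in WT, against 29.7%. Of the 53 genes 0 passed the rhythm difference or the interaction.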

How the data were processed

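Poly-A RNA of 48 mouse livers was sequenced from unstranded TruSeq v2 libraries, per the labels' protocols. The deposited table holds the authors' counts per gene, given as whole numbers; STAR 2.4.1d, CASAVA and the build mm9 are named in the submitters' processing notes, and no source used here gives the counting rule. Totals outside albumin lie between 12841969 and 13009797 counts and are nearly equal; how they came to be so is not stated, so whether the counts were resampled or scaled to one depth cannot be told, and the tests treat them as raw counts. Which reads fall to genes that overlap cannot be told apart: 15 of 36 members overlap another row, Plin4 with Hdgfrp2 and Srebf1 with Rai1 among them. No pair of libraries of a group agreed within sampling noise (smallest chi-square per degree of freedom 20.7).

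Counts were scaled by TMM and tested with edgeR 4.0.16 (R 4.3.3) by the quasi-likelihood test after filterByExpr (minimum count 10, minimum total 15), with Benjamini-Hochberg adjustment over 13646 genes and a threshold of 0.05. One design had 12 group means (the mean KO against WT difference, each time, and the interaction); the other had a 24 h cosine and sine for each genotype. CPM values use TMM-scaled library sizes; amplitudes and peaks are least-squares fits on log2 CPM (prior count 2). The scripts were tested on simulated data. Transcript GC content came from the longest GENCODE vM21 transcript of each gene, matched for 97.6% of genes tested and all 36 members; the slope of each library on GC was fitted with log2 transcript length as a second term. Correlations used 100000 permutations within groups (Python 3.11.15, NumPy 2.4.6). The members and lists were chosen with earlier results of these data known. Named genes were the 8 members with the lowest rhythm p in WT liver, the 3 with the lowest p in the mean comparison, and listed pathway genes past a test. Replicate numbers paired livers at 4 h by the data alone: same-numbered KO and WT livers deviated together in all 4 pairs (correlation 0.231 to 0.46 over 2000 genes), against 13 of 23 pairs above 0.1 in all. Alternatives were DESeq2 1.42.0 and its size factors, no filter, left-out libraries, the replicate block, time as a factor and, added after the data were seen, the library GC slope and leaving out both 4 h livers of number 1. The 3 libraries left out together were also picked for their content in these data.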

Additional observations from a re-analysis of the deposited data

Results flagged for a closer look

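In 165 combinations of a gene and a group of 4 or 5 livers, 17 held a liver far from the others by Dixon's test. The 15 genes examined were those named by rule and G0s2, Pnpla2, Cidec and Srebf1, which were chosen after their values were seen. The 11 genes named by rule gave 11 of 121 combinations (9.09%). Chance gives about 5% where values are normally distributed. The test was run on unlogged CPM and genes share their libraries, so that 5% is not a firm benchmark. The other 4 gave 6 of 44, which is not set against chance.

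The first KO liver of 4 h was far above the others in Pnpla2 (97.9 CPM, others 11.9 to 22.9) and in Srebf1 (105 CPM, others 48.4 to 51.7), and the second KO liver of 4 h was low in Lpl (13.4 CPM, others 21.0 to 21.3). The second KO liver of 8 h was high in Acsl5 (576 CPM, others 379 to 403.5) and in G0s2 (564 CPM, others 216 to 262). Among the KO livers of 12 h, the second was high in Dgat2 (379 CPM, others 285 to 301) and the third in Plin5 (173 CPM, others 117.5 to 122.5). The first KO liver of 20 h was high in Lpin1 (373 CPM, others 50.0 to 104) and in Cidec (56.4 CPM, others 10.5 to 17.1).

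In WT, the first liver of 0 h was high in Plin4 (256 CPM, others 55.5 to 85.1). At 4 h the first liver was low in Mttp (314.3 CPM, others 381 to 391) and the second high in Plin5 (247 CPM, others 119.8 to 134). The second WT liver of 8 h was high in Thrsp (314.0 CPM, others 94.9 to 104) and low in Agpat2 (147 CPM, others 169 to 171.5), and the third was high in Cidec (13.0 CPM, others 2.08 to 3.13). The second WT liver of 12 h was high in Plin5 (225 CPM, others 110.4 to 127), and the third WT liver of 20 h in Cidec (18.4 CPM, others 5.43 to 6.45).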

How the results depend on the processing

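Members called at 4 h numbered 1 (Plin4) with DESeq2, with both 16 h groups left out and with both 4 h livers of number 1 left out, and 0 to 3 when single libraries were left out: 3 without the first KO library of 4 h and 1 without the third KO library of 16 h. In the mean comparison single libraries left out gave 0 to 1. Members rhythmic in WT numbered 14 with DESeq2, 17 with the GC slope and 7 with time as a factor, and single libraries left out gave 9 to 14, the 14 without the second WT library of 20 h; in KO they gave 8 to 12. The cause was not tested. With the replicate block 0 members were called between genotypes, 10 were rhythmic in KO and 10 in WT. With the block and the GC slope together 10 were rhythmic in KO and 13 in WT. The block was the replicate number within each time in the genotype tests. In the rhythm tests it was the replicate number over all times, which joins different mice. Same-numbered livers deviated together at 4 h and not at every other time.

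Over all genes, called counts moved as follows, against 191 (mean), 2 (0 h), 5 (4 h), 0 (8 h), 0 (12 h), 3 (16 h) and 1 (interaction). With DESeq2 they were 356, 11, 192, 2, 3, 17 and 11. With no filter the mean gave 122, 0 h 10, 4 h 2, 12 h 1 and 16 h 0. With the replicate block the mean gave 127, 4 h 2, and 0 h, 16 h and the interaction 0. Without the 3 libraries that stand apart (the third WT library and the second KO library of 0 h, and the second KO library of 16 h) the mean gave 303, 0 h 8, 4 h 8, and 16 h and the interaction 0. With both 16 h groups left out 0 h gave 1, 4 h 543 and 12 h 1; with DESeq2 size factors 0 h gave 5; with the libraries of one time alone 0 h, 4 h and 16 h gave 0. With the GC slope 0 h gave 12, 4 h 1, 16 h 13 and the interaction 4, and with the block as well 7, 1, 1 and 0. With both 4 h livers of number 1 left out 4 h gave 908, the interaction 2, and 0 h, 12 h and 16 h 1 each. The rhythm difference called 5 genes with DESeq2 and 3 with the GC slope, against 1. Single libraries left out gave 99 to 484 for the mean, 0 to 9 at 0 h, 0 to 3354 at 4 h, 0 to 25 at 16 h, 1628 to 3691 for the KO rhythm and 1876 to 2987 for the WT rhythm. With time as a factor 1328 genes were rhythmic in KO and 1167 in WT; in WT it was 4057 with the GC slope and 3807 with the block as well.

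Mean KO against WT log2 differences that changed sign were all uncalled. With the GC slope these were Nr1h3 (0.015), Acacb (0.18), Fasn (0.037), Me1 (-0.070), Pklr (0.020), Agpat3 (0.12), Dgat1 (0.047), Dgat2 (0.021), Acsl4 (-0.060), Pnpla2 (0.078), Lipe (0.086) and Apob (-0.053). With the replicate block and the GC slope together they were Nr1h3 (0.022), Acly (0.0029), Acaca (0.017), Acacb (0.20), Fasn (0.11), Me1 (-0.062), Pklr (0.044), Agpat3 (0.12), Dgat1 (0.032), Dgat2 (0.073), Acsl4 (-0.063), Plin3 (0.010), Pnpla2 (0.065), G0s2 (-0.31), Lipe (0.086) and Apob (-0.016). With the replicate block alone it was Nr1h3 (0.0073), with both 16 h groups left out Nr1h3 (0.039), Thrsp (0.028) and Acsl4 (-0.00091), and without the 3 libraries that stand apart Acsl4 (-0.0069) and Cidec (-0.20). With both 4 h livers of number 1 left out they were Thrsp (0.0065), Agpat2 (-0.028), Cideb (-0.025), Cidec (-0.070) and Mgll (-0.018). Without single libraries the range was -0.24 to 0.015 for Acacb, -0.020 to 0.053 for Agpat2, -0.018 to 0.10 for Cideb, -0.18 to 0.21 for Cidec, -0.087 to 0.30 for G0s2, -0.14 to 0.041 for Lpin2, -0.0051 to 0.092 for Me1, -0.053 to 0.068 for Mgll, -0.023 to 0.015 for Nr1h3 and -0.10 to 0.076 for Thrsp. At 3 to 5 livers a group, a difference that missed the threshold is not shown to be absent.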
